A study of Bos taurus with 12 samples.

Results

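The motile cilium genes were the genes that the array's annotation names as axonemal dynein heavy chains (DNAH), dynein intermediate chains (DNAI), radial spoke head proteins (RSPH) or tektins (TEKT), together with CCDC39, CCDC40, FOXJ1, SPAG6, SPAG16 and SPAG17. They were matched by name, with no cutoff on intensity, but the list was set with earlier results of these data known. In all, 31 genes were found among the 26323 transcripts of a custom bovine array. DNAH14 and HYDIN were not analysed here. Each array carried the total RNA of a single female, from endometrium sampled by biopsy at Day 15 after estrus. The animals were 4 young females (YF; 4 to 5 years, primiparous), 4 old females (OF; 13 to 14 years, nulliparous) and 4 contemporary cows. The OF and YF were Holstein females cloned from the somatic cells of a single donor cow, so they shared 1 nuclear genome, and parity cannot be told apart from age. The age and genotype of the contemporary cows are not given in the sources used here. The labels state that contemporary cow 1111 was left out by the authors for a divergent phenotype, so the group comparisons used the other 3. The biopsies were of intercaruncular tissue, taken with forceps from the uterine horn on the side of the corpus luteum. They hold epithelium, stroma, vessels and leukocytes together.

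A motile cilium is built on an axoneme, a cylinder of microtubule doublets around a central pair. Outer and inner dynein arms are the motors that make the doublets slide. Radial spokes pass signals from the central apparatus to these arms, tektins are filaments inside the doublet wall, and CCDC39 and CCDC40 form the ruler that sets the spacing of spokes and inner arms along the doublet. FOXJ1 is the transcription factor that switches on the genes of motile cilia. In the endometrium, multiciliated cells are a minority of the luminal and glandular epithelium. In RNA from whole biopsies, fewer ciliated cells and less RNA per ciliated cell cannot be told apart.

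The 31 genes were read by 36 transcripts. A transcript more of RSPH9 was matched, but its single probe carried an outlier flag and was left out. Each oligonucleotide was 60 bases long, and each transcript was read by a pair of different sequences. The pairs of the genes on which the results below turn are given as the array's annotation lists them, with the gene's position on UMD3.1 from the same annotation. The place of each oligonucleotide within its gene and its strand are not given in the sources used here. Capitals in the DNAH10 pair mark the 58 bases that its oligonucleotides share, and capitals in CCDC39 mark an oligonucleotide that reads both of its annotated transcripts.
FOXJ1, chr19:56171932-56175103, oligonucleotide a: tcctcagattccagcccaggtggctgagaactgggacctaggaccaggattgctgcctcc
FOXJ1, oligonucleotide b: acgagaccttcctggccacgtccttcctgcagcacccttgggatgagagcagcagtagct
DNAH9, chr19:31084319-31248936, oligonucleotide a: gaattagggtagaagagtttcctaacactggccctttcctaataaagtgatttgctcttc
DNAH9, oligonucleotide b: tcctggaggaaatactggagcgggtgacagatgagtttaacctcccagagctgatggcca
DNAH1, chr22:49042073-49118359, oligonucleotide a: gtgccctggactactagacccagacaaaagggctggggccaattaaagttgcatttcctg
DNAH1, oligonucleotide b: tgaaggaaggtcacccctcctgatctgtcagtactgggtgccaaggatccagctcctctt
DNAH10, chr17:54040852-54199562, oligonucleotide a: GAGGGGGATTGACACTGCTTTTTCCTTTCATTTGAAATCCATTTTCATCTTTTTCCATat
DNAH10, oligonucleotide b: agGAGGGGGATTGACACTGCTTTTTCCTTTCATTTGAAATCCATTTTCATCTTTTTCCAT
RSPH1, chr1:144320106-144333299, oligonucleotide a: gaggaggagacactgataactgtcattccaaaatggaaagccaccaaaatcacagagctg
RSPH1, oligonucleotide b: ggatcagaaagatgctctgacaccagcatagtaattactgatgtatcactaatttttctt
TEKT1, chr19:25667183-25682924, oligonucleotide a: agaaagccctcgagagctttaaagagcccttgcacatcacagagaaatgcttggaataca
TEKT1, oligonucleotide b: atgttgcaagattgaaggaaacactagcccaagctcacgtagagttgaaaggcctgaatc
CCDC39, chr1:86953445-87005273, oligonucleotide a: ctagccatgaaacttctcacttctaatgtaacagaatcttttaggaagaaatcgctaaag
CCDC39, oligonucleotide b: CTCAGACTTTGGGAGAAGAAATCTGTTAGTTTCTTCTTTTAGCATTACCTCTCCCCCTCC

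Levels are given as the log2 of the processed Cy-3 intensity minus the 75th percentile of the array, averaged over the probes of a transcript. A level of 0 is therefore the 75th percentile of that array, and a step of 1 is a doubling of the signal. A level is compared between animals for the same gene and never between genes, because each oligonucleotide binds with its own strength. Between 71.6% and 74.9% of probes were well above background per array, and 0 spots were saturated. A gene was represented by its transcript with the highest mean level. Of the 31 genes, 22 had a probe well above background on all 12 arrays. DNAH6, RSPH6A, TEKT5 and SPAG16 had one on 4 arrays or fewer, and no difference is read from them. The transcript named DNAH12 carries a description for ASB14 in the same annotation, so its identity is uncertain.

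The largest contrast was between single animals, and nearly the whole set shared it. OF 2258 had the lowest level of the 12 animals for 25 of the 31 genes, where it was the lowest for 20.7% of all 19755 transcripts tested between OF and YF. YF 1127 had the highest level for 20 genes, against 8.75% of all transcripts tested. The 6 genes for which OF 2258 was not the lowest were the 4 that were mostly not well above background, TEKT3 and DNAH17. In OF 2258, 10 of the 31 genes had every probe well above background, 12 some of their probes and 9 none. Levels of the last 2 kinds are read wholly or partly from background in that animal. As a mean deviation over the 27 genes with a probe well above background on at least 6 of the 11 arrays used, OF 2258 stood at -2.63 log2 units. The other OF stood at -0.19 (0233), -0.05 (0234) and 0.38 (0245). Among the YF, 1069 stood at -0.59, 1070 at 0.85, 1072 at -1.06 and 1127 at 1.37. Contemporary cows 1068, 1128 and 1129 stood at -0.10, 1.02 and 0.98, and cow 1111 at 0.66. The YF therefore spanned both sides of the OF other than 2258.

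**Figure D1:**
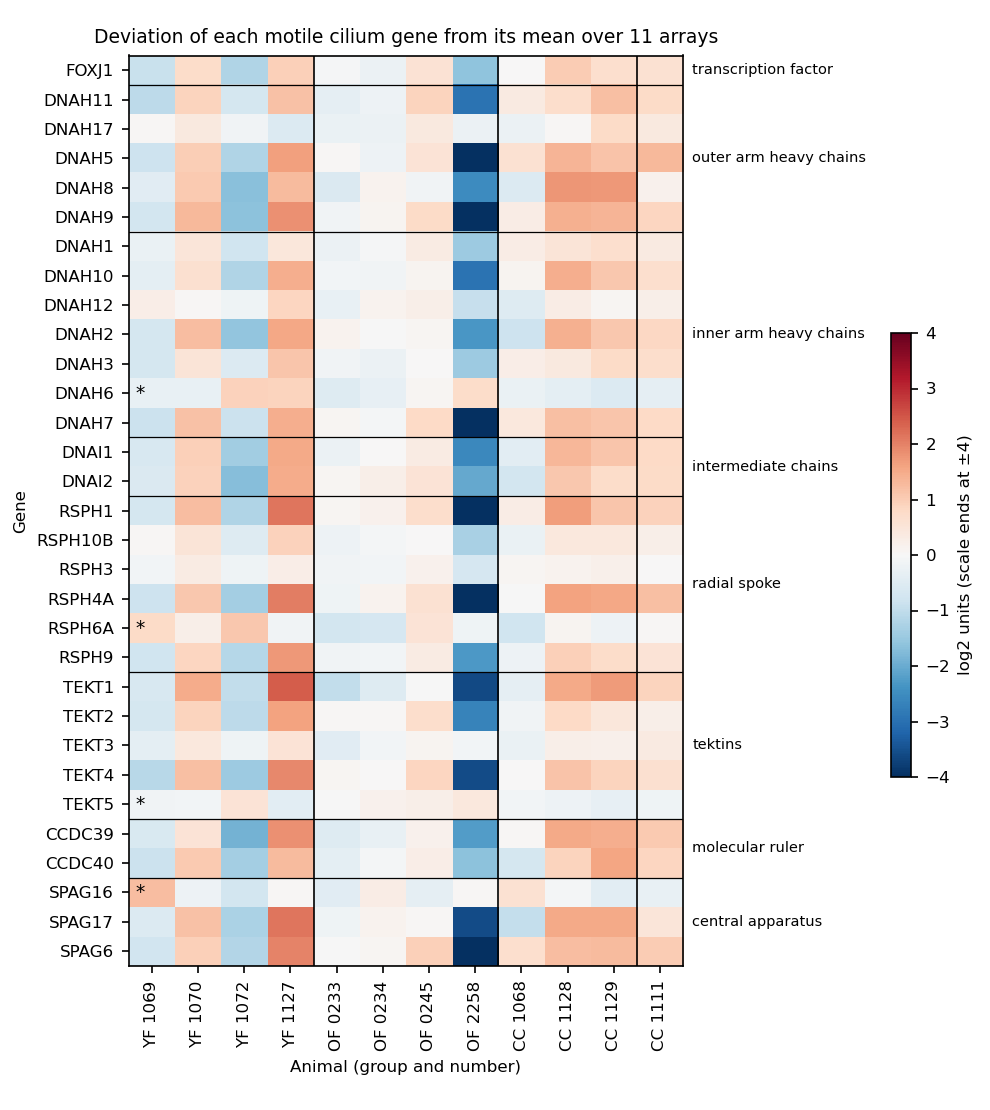
Deviation of each of the 31 genes (rows, grouped by role) from its own mean over 11 arrays, in log2 units, for each animal (columns). The column of OF 2258 is the lowest for 25 genes, YF 1127 is the highest for 20, and asterisks mark the 4 genes with a probe well above background on 4 arrays or fewer.

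FOXJ1, the transcription factor of the programme, had levels of -4.58, -2.95, -4.89 and -2.73 in YF 1069, 1070, 1072 and 1127. In OF 0233, 0234, 0245 and 2258 it had levels of -3.75, -3.94, -3.13 and -5.30, and in contemporary cows 1068, 1128 and 1129 of -3.68, -2.68 and -3.03. On this average OF 2258 lay below the YF, and the other OF lay inside their range. The difference OF minus YF was -0.24 ± 0.62 (SE, n = 4 and 4), and its 95% interval ran from -1.65 to 1.17. The 2 oligonucleotides did not read the same spread over the animals. Oligonucleotide a was well above background on 9 arrays and not in OF 2258, where it was lowest, at -7.92. Oligonucleotide b was well above background on all 12 and read -2.68 in OF 2258, above YF 1069 (-2.99) and YF 1072 (-2.87), so that by b all 4 OF lay inside the range of the YF. Oligonucleotide a ranged over 4.45 log2 units and b over 1.09, and with the brighter of them alone the difference was 0.00.

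Outer arm heavy chains are the motor subunits of the outer dynein arm. DNAH9, the outer arm chain with the highest mean signal, had levels of -2.16, -0.13, -3.06 and 0.41 in the YF, in the order of animals given for FOXJ1. Its levels were -1.56, -1.30, -0.64 and -5.94 in the OF and -1.13, 0.01 and -0.04 in the contemporary cows. Oligonucleotide b of DNAH9 was not well above background in OF 2258, and by oligonucleotide a alone that animal lay 5.32 log2 units under the next OF. The gap by the probes well above background in OF 2258 was 3.00 log2 units for DNAH5, where that was 1 of 4 probes, and 2.39 for DNAH11, where it was 1 of 2. DNAH8, a chain best known from sperm flagella, was well above background in 3 of 4 YF, 3 of 4 OF and 3 of 3 contemporary cows. DNAH17, which is also best known from sperm, had levels of -5.68, -5.34, -5.87 and -6.28 in the YF and of -5.99, -5.98, -5.34 and -5.97 in the OF. In the contemporary cows its levels were -5.95, -5.69 and -4.95. DNAH17 had a range of 1.33 log2 units over the 12 animals, and the order of the animals was not that of DNAH9.

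Inner arm heavy chains shape the bend of the beat. DNAH7 had levels of -2.41, -0.39, -2.43 and -0.12 in the YF, of -1.48, -1.64, -0.75 and -5.97 in the OF, and of -1.12, -0.35 and -0.45 in the contemporary cows. OF 2258 was 4.32 log2 units under the next OF. For DNAH10 that gap was 2.80 log2 units, for DNAH3 1.24 and for DNAH1 1.22. DNAH10 shows what a like pair of sequences gives: its overlapping oligonucleotides ranged over 4.78 and 4.04 log2 units. Those of DNAH1 do not overlap and ranged over 3.42 and 1.02. DNAH2 was well above background on 9 arrays and not in OF 2258. The transcript named DNAH12 ranged over 1.80 log2 units.

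Intermediate chains hold the heavy chains of the outer arm together at its base. DNAI1 had levels of -2.93, -1.32, -3.68 and -0.76 in the YF, of -2.53, -2.28, -1.95 and -4.86 in the OF, and of -2.71, -0.96 and -1.17 in the contemporary cows. The YF covered the range of all animals but OF 2258. DNAI2 ranged over 3.52 log2 units, again from OF 2258 to YF 1127, but 1 of its oligonucleotides was not well above background in OF 2258. By the other, well above background on all 12 arrays, YF 1072 was the lowest, at -5.15, and OF 2258 read -4.88.

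Radial spoke head proteins had the widest and the narrowest ranges. RSPH1, a component of the spoke head, had levels of -2.16, -0.23, -2.66 and 0.68 in the YF and of -1.38, -1.28, -0.76 and -6.88 in the OF. In the contemporary cows its levels were -1.16, 0.23 and -0.35. Oligonucleotide a was not well above background in OF 2258, and by oligonucleotide b alone that animal was 42.8-fold under the next OF. RSPH4A, another spoke head protein, was at -7.74 in OF 2258, where it was not well above background, and between -4.44 and -1.03 in the other animals. RSPH3, a protein of the spoke stalk, had levels of 0.62, 1.04, 0.55 and 0.99 in the YF, of 0.58, 0.62, 0.88 and 0.06 in the OF, and of 0.80, 0.84 and 0.90 in the contemporary cows. Its range of 0.98 log2 units still had OF 2258 at the bottom. RSPH9 ranged over 4.01 log2 units and RSPH10B over 2.24.

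Among the tektins, TEKT2 had levels of -2.68, -1.09, -3.03 and -0.40 in the YF, of -1.96, -1.94, -1.28 and -4.65 in the OF, and of -2.14, -1.21 and -1.54 in the contemporary cows. TEKT1 had levels of -3.68, -1.55, -4.01 and -0.62 in the YF. In the OF its levels were -4.04, -3.55, -3.06 and -6.66, and in the contemporary cows -3.41, -1.52 and -1.35. In TEKT1, unlike in DNAH9 or RSPH1, OF 0233 was as low as the lowest YF. TEKT4 ranged over 5.51 log2 units and was not well above background in OF 2258. TEKT3 had levels of -3.67, -2.85, -3.46 and -2.74 in the YF, of -3.73, -3.39, -3.18 and -3.38 in the OF, and of -3.53, -3.06 and -3.08 in the contemporary cows. Its levels stayed within about 1 log2 unit, with OF 2258 in the middle.

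CCDC39, of the molecular ruler, had levels of -3.21, -2.05, -4.47 and -0.77 in the YF, of -3.11, -2.89, -2.43 and -4.84 in the OF, and of -2.56, -1.07 and -1.15 in the contemporary cows. YF 1072 was nearly as low as OF 2258. Its partner CCDC40 ranged over 3.24 log2 units. SPAG6, of the central apparatus, had levels of -1.30, 0.43, -1.70 and 1.44 in the YF and of -0.55, -0.45, 0.43 and -5.72 in the OF. In the contemporary cows its levels were 0.15, 0.71 and 0.73, and OF 2258 was 35.3-fold under the next OF by the 2 of 4 probes that were well above background in it. SPAG17 was at -8.50 in OF 2258, not well above background there, and between -6.18 and -2.77 in the other animals.

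**Figure D2:**
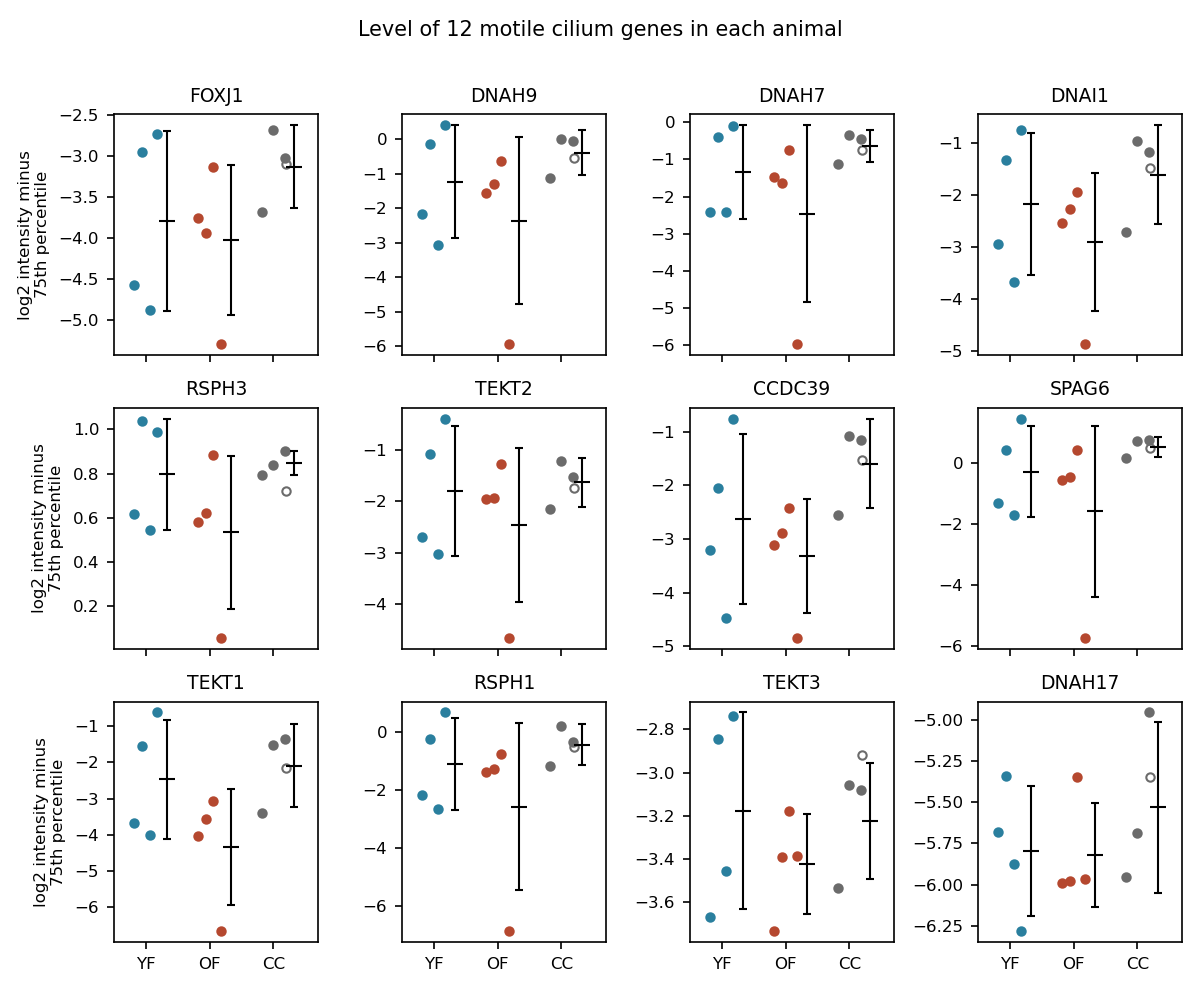
Levels of 12 genes (log2 intensity minus the array's 75th percentile) in each YF, OF and contemporary cow (CC), with group mean and SD at the right of each group. Each panel has its own axis, and the open circle is cow 1111, which is not in the CC mean. OF 2258 is the lowest point in 10 of the panels, and TEKT3 and DNAH17 are the others.

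The study compared OF with YF to describe the ageing endometrium. By limma, 25 of the 31 genes were tested. An adjusted p of 0.05 or less was reached by 0 of them and by 0 of all 19755 transcripts tested (0.0%). The 25 genes tested had an adjusted p of 0.999. At an unadjusted p of 0.05, limma called 0 of the 25 genes tested, against 2.42% of all transcripts tested. The group mean was lower in OF for 30 of the 31 genes, against 11672 of all 26323 transcripts. The median difference over the 31 was -0.69 on the log2 scale, against 0.03 over all transcripts. The genes followed each other across animals, as given below, so such counts of direction are not independent. The OF and YF overlapped for every one of the 31 genes, as they did for most transcripts. Of all 26323 transcripts, 270 had every OF above every YF and 135 had every OF below. The largest difference was that of TEKT1, whose OF mean was -4.33 ± 1.61 and YF mean -2.47 ± 1.65 (SD, 4 animals each). This is a difference of -1.86 ± 0.98 (SE), with a 95% interval from -4.10 to 0.37 (limma p = 0.091, exact permutation p = 0.229, two-sided). RSPH1 followed with -1.48 ± 1.40 (SE) and SPAG6 with -1.29 ± 1.34 (SE). The smallest differences were those of DNAH17 (-0.03 ± 0.24, SE), FOXJ1, and TEKT3 (-0.25 ± 0.24, SE), and that of DNAH17 changed sign with normexp background correction, with the slide as a block and without any one of YF 1069, YF 1070, OF 0233, OF 0234 and OF 2258.

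The size of that difference rested on OF 2258, and for some genes its direction did. Without it the median difference over the 31 genes was -0.08, and DNAH9, DNAH7, TEKT2 and SPAG6 turned to between 0.05 and 0.09 higher in OF, and FOXJ1 to 0.18. TEKT1 remained lower. Without YF 1127 the median was -0.23. Without YF 1072 it was -1.07, and TEKT1 and RSPH10B were then the 2 genes with an unadjusted limma p of 0.05 or less. The arrays lay on 2 slides. On slide 1, with 1 OF and 2 YF, the median difference was 0.43, with 27 genes higher in OF. On slide 2, with 3 OF and 2 YF, it was -1.23, with 29 genes lower.

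The fold change rank ordering statistics (FCROS), which is the method of the study and uses ranks of pairwise ratios in place of the spread, called 3 of the 31 genes lower in OF. These were TEKT1, RSPH10B and RSPH6A, which was not well above background in any OF. FCROS called 2.06% of all 26323 transcripts lower. On simulated arrays with independent noise, in which 200 of 26323 transcripts were changed, most of its calls were false. That share depends on how many transcripts were changed. It was not measured for genes that follow each other, so it is no rate for these genes. Without OF 2258 FCROS called only RSPH6A among the 31 genes, and without YF 1069 or without YF 1072 it called 22 of them. It called 0 without OF 0233, and 1 without YF 1070 or without YF 1127. The share of all transcripts called with an animal left out is not given here for any comparison, by FCROS or by limma. Whether such counts are particular to these genes was therefore not tested.

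The spread within groups was wide in these genes. The median SD over the 31 genes was 1.26 log2 units in YF and 1.18 in OF, against 0.28 and 0.32 over all transcripts tested. In the 3 contemporary cows it was 0.52, against 0.27. Without OF 2258 the median SD of the OF was 0.33, against 0.24 over all transcripts tested. Among the YF, 1127 was the highest for 24 genes and 1072 the lowest for 24.

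**Figure D3:**
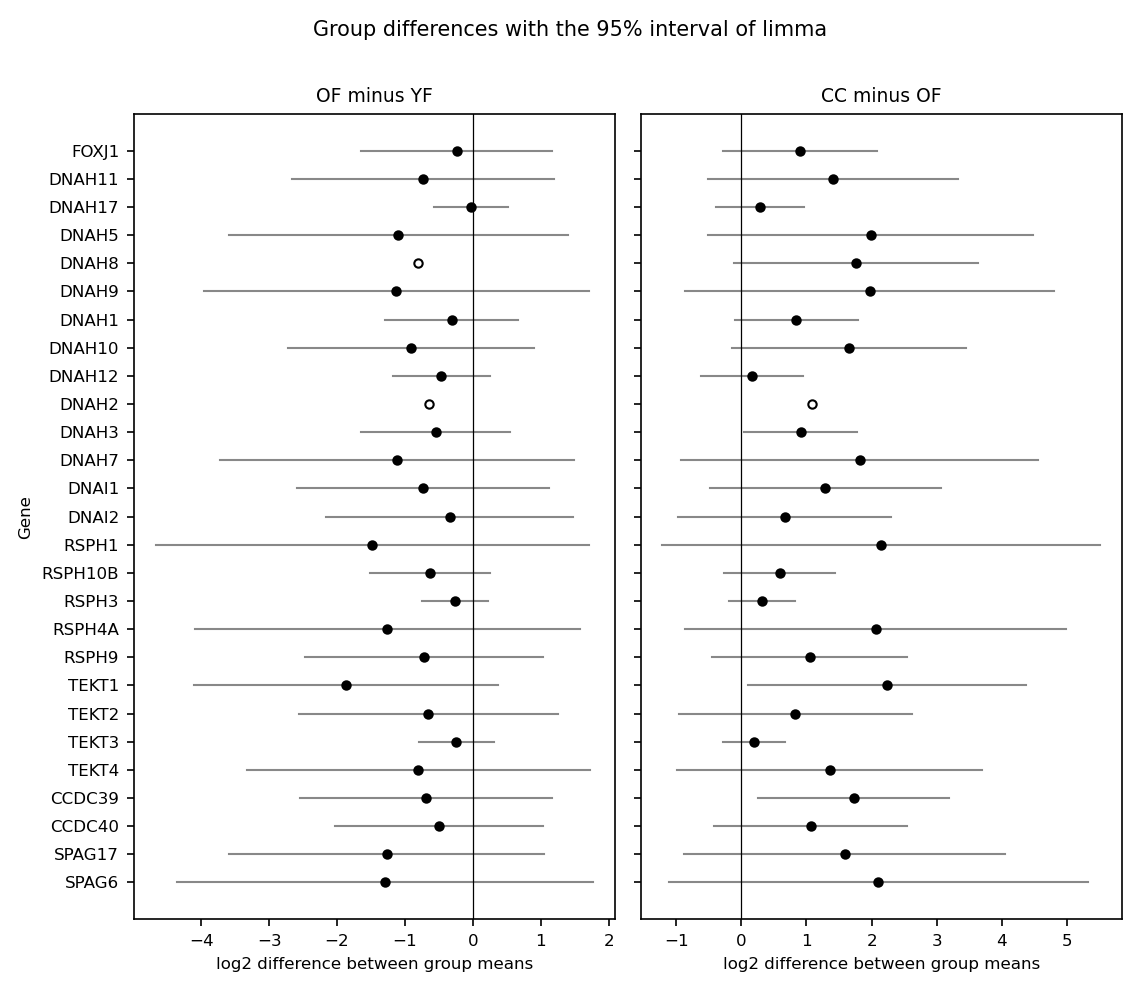
Difference of group means for 27 genes (log2 units; OF minus YF at the left, contemporary cows minus OF at the right), with the 95% interval of limma where the gene was tested. Open circles were not tested, and the 4 genes mostly not well above background are left out. At the left every interval holds 0, and at the right those of DNAH3, CCDC39 and TEKT1 do not.

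The contemporary cows were also compared with YF. By limma, 26 of the 31 genes were tested. An adjusted p of 0.05 or less was reached by 0 of them and by 0.0% of all 19993 transcripts tested. At an unadjusted p of 0.05, limma called 0 of the 26 genes tested, against 3.03% of all transcripts tested. The mean was higher in contemporary cows for 24 of the 31 genes, against 11367 of all 26323 transcripts. The median difference was 0.44, against -0.04 over all transcripts. CCDC39 had the largest difference, 1.03 ± 0.83 (SE, n = 3 and 4). FCROS called DNAH8 higher in the cows, 1 of the 31 genes, against 1.94% of all transcripts. RSPH6A was the 1 gene it called lower, against 603 of all 26323 transcripts. Without YF 1127 it called 19 genes higher, the median difference was 0.91, and CCDC39, DNAH5 and SPAG6 had an unadjusted limma p of 0.05 or less. It called 4 higher without YF 1070 or without cow 1068, and 0 higher without YF 1072, cow 1128 or cow 1129. The median difference was 0.06 without YF 1072 and 0.89 without cow 1068.

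Against OF, the contemporary cows had the higher mean for 28 of the 31 genes, against 10270 of all 26323 transcripts. The median difference was 1.06, against -0.08 over all transcripts. By limma, 26 of the 31 genes were tested. An adjusted p of 0.05 or less was reached by 0 of them and by 0.0% of all 19914 transcripts tested. The smallest adjusted p of the 26 genes was 0.912. CCDC39, TEKT1 and DNAH3 were the 3 of 26 genes tested with an unadjusted p of 0.05 or less, against 4.57% of all transcripts tested. CCDC39 was 1.72 ± 0.63 (SE, n = 3 and 4) higher, at limma p = 0.027 and exact permutation p = 0.0857. TEKT1 was 2.24 ± 0.91 (SE) higher, at limma p = 0.042 and exact permutation p = 0.114. DNAH3 was 0.91 ± 0.37 (SE) higher, at limma p = 0.042 and exact permutation p = 0.0571. All 3 contemporary cows lay above all 4 OF for DNAH3, DNAH5 and DNAH10, 3 of the 31 genes, against 2.86% of all transcripts tested. The next transcript of CCDC39, which shares an oligonucleotide with it, gave 1.47. Both comparisons with the contemporary cows share those cows, and the comparisons with OF or with YF share those females, so the comparisons are not independent.

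FCROS called 19 of the 31 genes higher in contemporary cows than in OF, against 3.24% of all transcripts. They were FOXJ1, 4 outer arm chains (DNAH5, DNAH8, DNAH9, DNAH11), 5 inner arm chains (DNAH1, DNAH2, DNAH3, DNAH7, DNAH10), DNAI1, RSPH1, RSPH4A, RSPH9, TEKT1, CCDC39, CCDC40, SPAG6 and SPAG17. Without OF 2258 it called 6, namely CCDC39, DNAH5, DNAH9, DNAH10, SPAG6 and TEKT1. By limma without OF 2258, the unadjusted p was 0.05 or less for 5 genes, DNAH3, DNAH5, DNAH10, CCDC39 and TEKT1, and the median difference was 0.49. Without cow 1128 or without cow 1129, FCROS called 9 genes and limma 0 at that p, and without OF 0245 limma called 6. On slide 2 alone, with 3 contemporary cows and 3 OF, the median difference was 1.31. The 1 contemporary cow on slide 1 was 1111.

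Other genes of ciliated cells also mostly had the lower mean in OF. Of all 19755 transcripts tested, 9547 did. The lists were read on the same animals as the motile cilium genes, so their counts are not independent of those. Of 43 other axonemal genes on the array, 37 were tested between OF and YF, of which 34 had the lower mean in OF, with a median of -0.56 over the 43. Of 24 other genes known from ciliated cells, 18 were tested and 16 had the lower mean in OF. For the 10 dynein arm assembly factors, cytoplasmic proteins that put the arms together before they enter the cilium, 9 were tested and all 9 had the lower mean, with a median of -0.37. None of these 3 lists had a gene with an unadjusted p of 0.05 or less between OF and YF, against 2.42% of all transcripts tested. Intraflagellar transport, which carries parts along primary as well as motile cilia, had 24 of 25 genes tested, all 24 lower in OF, with a median of -0.27. Its 1 gene of 24 with an unadjusted limma p of 0.05 or less was WDR19, against 2.42% of all transcripts tested. WDR19 was at -0.67 ± 0.29 (SE) for OF minus YF. OF 2258 was the lowest of the 12 animals for 36 of 42 axonemal genes well above background, and for 8 of 25 transport genes. It was the lowest for 20.7% of all transcripts tested. Its mean deviation was -2.42 log2 units over those axonemal genes and -0.28 over the transport genes.

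Between contemporary cows and OF, the means of 39 of 41 axonemal genes tested and of 24 of 25 transport genes were higher in the cows. Of all 19914 transcripts tested, 8675 were. IFT57 (0.72 ± 0.20, SE) and IFT88 (0.47 ± 0.18, SE), both of the transport complex, and the adenylate kinase AK8 (0.69 ± 0.27, SE) had an unadjusted limma p of 0.05 or less. These were 2 of 25 transport genes and 1 of 41 axonemal genes tested, against 4.57% of all transcripts tested. Of these 4 lists, 0 genes had an adjusted p of 0.05 or less in any comparison.

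The regulators that act with or upstream of FOXJ1 were not alike. MCIDAS, GMNC and CDC20B, which start the multiciliated programme or the amplification of centrioles, had a probe well above background on 3 arrays or fewer. MYB had levels of -2.37, -0.86, -2.84 and 0.08 in the YF and of -1.56, -1.58, -0.89 and -5.05 in the OF, an order of animals much like that of FOXJ1. TP73, well above background on 10 arrays, was at -8.36 in OF 2258 and between -7.84 and -4.01 in the other animals. CCNO, DEUP1 and FOXN4 had a higher mean in OF. Between OF and YF, 0 of the 6 genes tested had an unadjusted p of 0.05 or less, against 2.42% of all transcripts tested. Between contemporary cows and OF, RFX3 (0.55 ± 0.21, SE) and TP73 (1.76 ± 0.75, SE) were the 2 of 7 genes tested with an unadjusted limma p of 0.05 or less, against 4.57% of all transcripts tested.

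Markers of other cell types differed between the same animals. OF 2258 was the lowest of the 12 animals for 12 of 12 epithelium markers, such as KRT8 and EPCAM, with a mean deviation of -1.93 log2 units, against -2.63 for the motile cilium genes. Its 8 smooth muscle markers stood at 4.04. OF 0234 had the next highest smooth muscle mean, 2.45, with motile cilium genes at -0.05 and epithelium markers at -0.14. The epithelium markers did not order the YF as the motile cilium genes did. YF 1072 had epithelium markers at 0.34 and motile cilium genes at -1.06, and YF 1069 had them at -1.13 and -0.59. YF 1127 was close to YF 1072 in epithelium markers, at 0.37, but had motile cilium genes at 1.37. When the mean of the epithelium markers was subtracted from that of the motile cilium genes, OF 2258 stood at -0.70, with 0233 at -0.72, 0245 at -0.52 and 0234 at 0.09. The YF stood at 0.54 (1069), 0.12 (1070), -1.40 (1072) and 1.005 (1127), and contemporary cows 1068, 1128 and 1129 at 0.01, 0.72 and 0.85. Between OF and YF, 9 of 12 epithelium markers had the lower mean in OF and 8 of 8 smooth muscle markers the higher mean. All 9 stroma markers had the lower mean in OF, as had 2 of 7 endothelium and 3 of 9 leukocyte markers. Of all 19755 transcripts tested, 9547 had the lower mean in OF. The part of these cell types in the levels of the motile cilium genes was not tested.

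**Figure D4:**
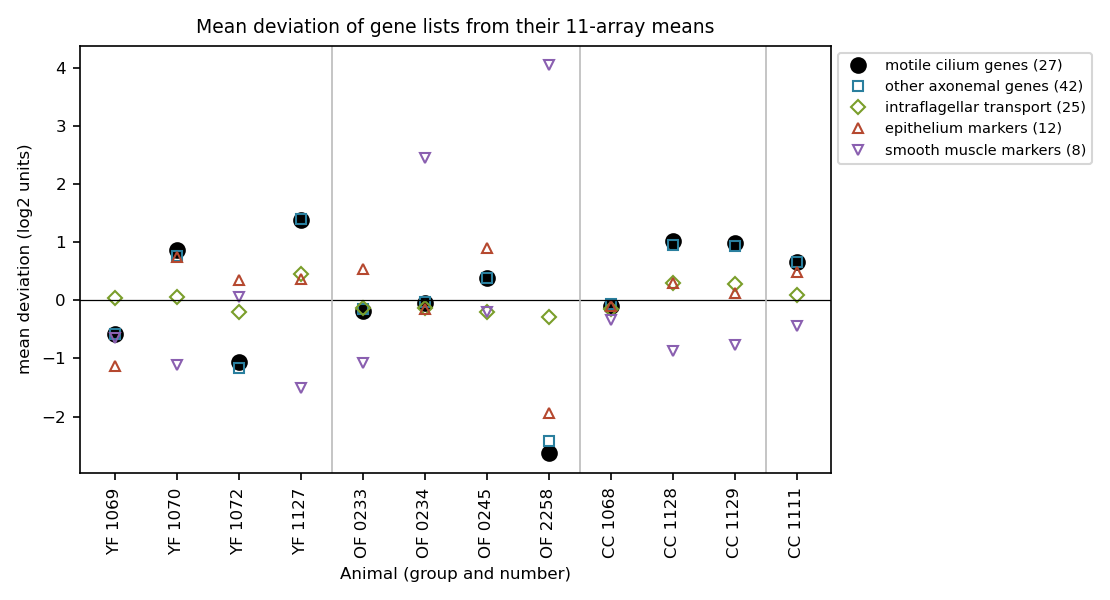
Mean deviation from the 11-array mean (log2 units) in each animal for 27 motile cilium genes and for 4 other lists, with the number of genes of each list in brackets. Other axonemal genes lie close to the motile cilium genes in every animal, and epithelium markers lie farthest from them in YF 1072 and YF 1127. Smooth muscle markers are highest in OF 2258 (4.04) and OF 0234 (2.45).

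The members followed each other across animals within groups. Over 11 arrays and after the group means were taken out, the median Pearson r of a tested member with the mean of the other tested members was 0.97 (25 genes), and it was over 0.9 for 21 of them. Without OF 2258 the median was also 0.97. DNAH17 had an r of 0.20 and TEKT3 of 0.58, which was 0.92 without OF 2258. Among all 19755 transcripts tested, 314 had an r over 0.9 with the mean of the members, and the median was -0.10. Transcripts outside the set that were among those with the highest r, each at least 0.99, were C11ORF16, PDCL2, ARMC3, LRRC73, PPP1R32, SPEF1, C11H2orf81, MORN3 and EFCAB6. PPP1R32 ran from -4.36 in OF 2258 to 1.71 in YF 1127. These correlations are a description over 11 arrays that share their RNA and scaling with the members, and each of those named kept an r of at least 0.99 (rounded) without OF 2258.

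The oligonucleotide pairs of a gene mostly gave like ranges over the animals. For RSPH1 they ranged over 7.59 and 7.53 log2 units and for SPAG6, whose oligonucleotides share 31 bases, over 7.19 and 7.12. In each of these genes 1 of the pair was not well above background in OF 2258, so its range ends in a background reading. The FOXJ1 pair (4.45 and 1.09) and the DNAH1 pair (3.42 and 1.02) differed most by the ratio of the wider to the narrower range. The DNAI2 pair (4.96 and 2.35) also differed. The wide oligonucleotide of FOXJ1 was well above background on 9 arrays, with its lowest reading in OF 2258 at background, and that of DNAH1 on all 12. In both genes the narrow oligonucleotide was well above background on all 12 arrays. The FOXJ1 pair had the same GC content, 60.0%. What either narrow oligonucleotide binds was not tested.

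**Figure D5:**
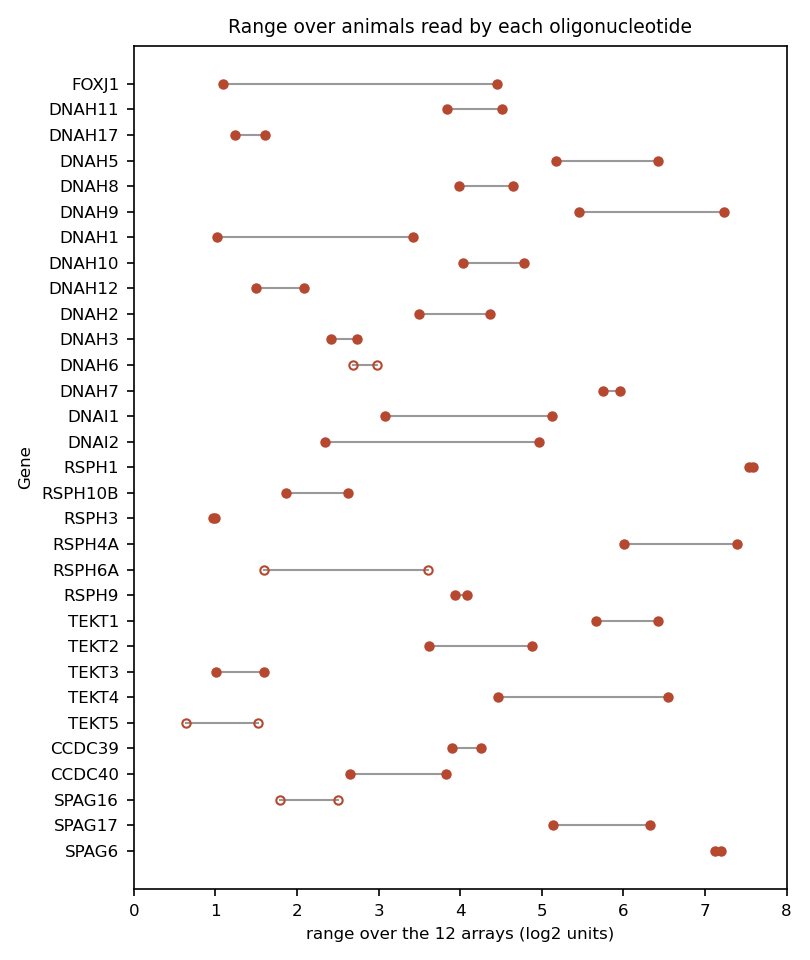
Range over the 12 arrays (log2 units) of the signal read by the oligonucleotides of each gene, as points joined by a line, with the narrowest and widest for each gene. Open points are the 4 genes mostly not well above background. RSPH1 (7.59 and 7.53) and SPAG6 give nearly the same range with both oligonucleotides, and FOXJ1 (4.45 and 1.09) and DNAH1 (3.42 and 1.02) do not.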

How the data were processed

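Labelled cRNA of every female was hybridized to its own custom bovine array in a single colour (Cy-3). As deposited, each spot has a processed intensity from Feature Extraction 10.7.3.1, from which the software had removed background, with no scaling across arrays. The log2 of the deposited intensity was taken and the array's 75th percentile subtracted. The 1319 control spots per array and 66 probes with an outlier flag were left out, and a transcript's level is the mean of its probes. Signal over background and the number of arrays limit the precision.

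Groups were compared with limma 3.58.1 (R 4.3.3), two-sided, on transcripts for which some probe was well above background throughout a group, with Benjamini-Hochberg adjustment over all of them and only the arrays compared in a fit. FCROS was coded from its published description on all transcripts (trim 0.25, f beyond 0.025 or 0.975, fold change of 1.5 between arithmetic means). Single genes were also tested by exact permutation of the animals. The fits were tried on simulated arrays with independent noise, in which 200 of 26323 transcripts were changed by 2 log2 units. For OF against YF, FCROS recovered 98% of them and limma 79%, and 86.68% of FCROS calls and 5.389% of limma calls were false. For contemporary cows against OF, they recovered 97.5% and 57.5%, and 86.15% and 5.738% of their calls were false. The shares that were false depend on how many transcripts were changed, and are no rate for the motile cilium genes. The motile cilium genes, the gene lists and the alternatives were chosen with earlier results of these data known. Genes given in every animal are FOXJ1, the gene of each role with the highest mean signal, any gene with an unadjusted p of 0.05 or less between OF and YF (0 were found), and the 3 largest and 3 smallest differences between OF and YF. A gene is its transcript with the highest mean signal. Genes of the other lists were named by the smallest p. MYB and TP73, the cell type markers named, and the genes whose gap in OF 2258 or range is given were chosen after their values were seen. The alternatives were quantile normalization, median centring, normexp background correction with an offset of 50, the brightest probe, probes tested singly, dim probes kept, a block for slide, a fit of all 3 groups together, cow 1111 included, and each animal left out. Promoter motifs were not analysed here. Transcripts outside the set were named by their Pearson r with the mean of the tested members, and a transcript that met this rule is not reported here.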

Additional observations from a re-analysis of the deposited data

Results flagged for a closer look

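In a group of 4, an animal was taken as standing apart when its gap to the nearest of the others, as a share of the group's range, was above Dixon's critical value at 95%, which chance alone exceeds in about 1 group in 20. Of the genes given in every animal, OF 2258 stood apart at the low end for DNAH7 (level -5.97), SPAG6 (-5.72) and RSPH1 (-6.88). OF 0245 stood apart at the high end for DNAH17 (-5.34). Over the 31 genes, OF 2258 stood apart at the low end for 10, against 2.02% of all 19755 transcripts tested between OF and YF. The 10 include DNAH2, which was not tested, RSPH4A and SPAG17, none with a probe well above background in OF 2258. They also include DNAH5, with 1 of 4 probes well above it. The low readings of these genes come wholly or partly from background. OF 0245 stood apart at the high end for 1, against 0.537%, and 0 YF did. The genes share their animals, so these are not independent counts.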

How the results depend on the processing

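No paired analysis was possible because the labels give animal numbers that no 2 groups share. Adjusted p of 0.05 or less was reached by 0 of the 31 genes in each comparison under every alternative run. The median difference OF minus YF over the 31 genes ranged from -1.07 to -0.08 with an animal left out, that of contemporary cows minus YF from 0.06 to 0.91, and that of contemporary cows minus OF from 0.49 to 1.61, and under normexp they were -0.35, 0.28 and 0.54. Normexp was run with an offset of 50 added to every signal, which shrinks differences between dim signals. Genes with an unadjusted limma p of 0.05 or less numbered 0 to 2 for OF against YF and 0 to 3 for contemporary cows against YF with an animal left out. For contemporary cows against OF they numbered 0 to 6 with an animal left out, 6 with normexp, 6 with the slide as a block, 5 with cow 1111 included and 0 with all 3 groups in 1 fit. With an animal left out, FCROS called 0 to 22 genes lower in OF than in YF, 0 to 19 higher in contemporary cows than in YF and 6 to 21 higher in contemporary cows than in OF. The share of all transcripts called under any of these settings, by limma or by FCROS, is not given here. Whether the counts under these settings are particular to these genes was not tested. For OF minus YF, FOXJ1 turned to 0.00 (0.00155) with the brightest probe or with only the probes that passed the filter averaged, an alternative added after the data were seen, and ranged from -0.61 to 0.18 with an animal left out (0.04, 0.11 and 0.18 without YF 1070, YF 1127 and OF 2258). DNAH17 turned to 0.097 with normexp and 0.0962 with the slide as a block, and ranged from -0.19 to 0.13 with an animal left out. With an animal left out, DNAH9 ranged from -1.73 to 0.067, DNAH7 from -1.69 to 0.048, TEKT2 from -1.07 to 0.073 and SPAG6 from -1.96 to 0.089, each above 0 without OF 2258 alone. The cause of these changes was not tested.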
